A study of Mus musculus with 53 samples.

Results

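Ataxin-3, the protein with the expanded glutamine stretch in spinocerebellar ataxia type 3 (SCA3), works with a small circle of proteins that handle ubiquitin. The transcripts of 8 genes of this circle were examined: the Josephin relatives Josd1 and Josd2, the segregase Vcp with its cofactor Nploc4, the shuttle proteins Rad23b and Ubqln2, and the ubiquitin ligases Stub1 and Ube4b. They were picked by gene symbol, and all 8 were found among the 12372 genes of the count table. All samples came from aged male mice, 74 to 77 weeks old, that had been tested earlier for beam walking and rotarod performance and had shown no ataxia. SCA3 mice were MJD84.2 mice, hemizygous carriers of human ATXN3 in full length, its CAG repeat expanded, active in all tissues from its own human promoter, beside their own mouse Atxn3. Controls were wild-type C57BL/6 mice, and neither group was given a drug. RNA was sequenced from brainstem (8 wild-type, 6 SCA3), cerebellum (7 wild-type, 6 SCA3), cortex (also 7 and 6) and striatum (8 and 5), giving 53 libraries from 14 mice with 1 library per mouse and region.

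Ubiquitin is attached to proteins by ligases, trimmed by deubiquitinating enzymes and read by shuttle proteins that carry tagged substrates to the proteasome. Ataxin-3 is a deubiquitinating enzyme, and its catalytic Josephin domain is shared with Josd1 and Josd2. Ataxin-3 binds Vcp, the ATPase that pulls ubiquitinated proteins out of membranes and complexes, and the ubiquitin-like domain of Rad23 proteins. Stub1, also known as CHIP, and Ube4b are ligases of the U-box type that have been tied to the ubiquitination and clearance of expanded ataxin-3.

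Libraries held 31.7 to 76.7 M counts (M for mega), and each of the 8 genes had at least 709 counts in every library. Values are CPM, that is, counts relative to the TMM-adjusted (trimmed mean) total of their library. Marker genes were summed per library to check the labelled tissue. The 12 measured markers of striatal projection neurons reached 2567 to 10809.5 CPM in wild-type striatum and 6642 to 9892 CPM in SCA3 striatum, against at most 659 CPM in brainstem and 437 CPM in cerebellum. Cortex held 881 to 4692 CPM of them, which overlapped the 3 lowest wild-type striatal libraries (2567, 3630.2 and 3869 CPM). The 9 measured thalamic markers spanned 169 to 2574 CPM in wild-type striatum and 171 to 423 CPM in SCA3 striatum. A pair of wild-type striatal libraries (mice 7267058 and 7267059) stood apart with 1563 and 2574 CPM. In SCA3 striatum 5 of these 9 markers were called lower (median log2 difference -1.41) and none was higher. All 12 projection neuron markers were higher there (median 0.45), with 0 called, and 2 of 10 general neuron markers were called lower. Oligodendrocyte markers, 12 of 12 measured, summed to 6919 to 20142 CPM in wild-type and 6368 to 9717 CPM in SCA3 striatum. Oligodendrocyte and astrocyte markers were lower in SCA3 in 2 regions. In striatum 6 of 12 and 4 of 10 were called lower (median log2 differences -0.58 and -0.34), against 7.54% of all genes called in either direction. In brainstem 4 of 12 and 3 of 10 were called lower (-0.54 and -0.37), against 1.92% of all genes. None of either list was called in cerebellum or cortex. Of 10 microglia markers 0 were called in striatum (median -0.04) and 1 was called lower in brainstem (median -0.15). The 4 measured cortical glutamatergic markers ranged from 426 to 1872 CPM over the cortical libraries, which overlapped the cerebellar libraries (414 to 700 CPM). Striatal libraries of wild-type mouse 9083375 (733 CPM) and SCA3 mouse 9083514 (722 CPM) also lay in the cortical range. Of 8 brainstem neuron markers only Chat was in the table, at 1.97 to 32.6 CPM in wild-type brainstem. Of the measured genes of these lists, Chat was at 0 in cerebellar libraries and no other gene was at 0 in any library. These are bulk tissue samples, in which fewer cells of a type and less RNA per cell cannot be told apart.

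Josd1 and Josd2, small deubiquitinases built of little more than a Josephin domain, had their highest and lowest regions exchanged in wild-type mice, while striatum and cerebellum lay between them, in that order, for both. Josd1 (chromosome 15, 79674251 to 79687919 of GRCm38, minus strand, 4 exon blocks) was highest in cortex at 80.8 ± 13.98 CPM (SD, n = 7), followed by striatum at 70.6 ± 11.4 (n = 8), cerebellum at 57.8 ± 3.36 (n = 7) and brainstem at 47.4 ± 3.04 (n = 8). The highest mean was 1.70 times the lowest. Josd2 (chromosome 7, 44467980 to 44471662, plus strand, 6 exon blocks) was highest in brainstem at 54.9 ± 5.67 CPM (n = 8) and lowest in cortex at 35.3 ± 6.10 (n = 7), with 52.3 ± 9.99 in striatum and 40.4 ± 2.49 in cerebellum. Brainstem minus cortex was thus -0.77 for Josd1 (log2, SE 0.086, FDR = 7.3e-18) and 0.63 for Josd2 (SE 0.096, FDR = 3.2e-10), in edgeR's likelihood ratio test with FDR adjusted over all genes. Cerebellum was below striatum for both, by the test (-0.29, FDR = 0.0015 for Josd1 and -0.37, FDR = 0.00021 for Josd2). The ranges of the 8 brainstem and 7 cortical libraries did not overlap for either gene: Josd1 ran from 41.4 to 50.3 CPM in brainstem and from 64.1 to 98.2 in cortex, and Josd2 from 46.5 to 62.2 and from 25.3 to 41.0.

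**Figure D1:**
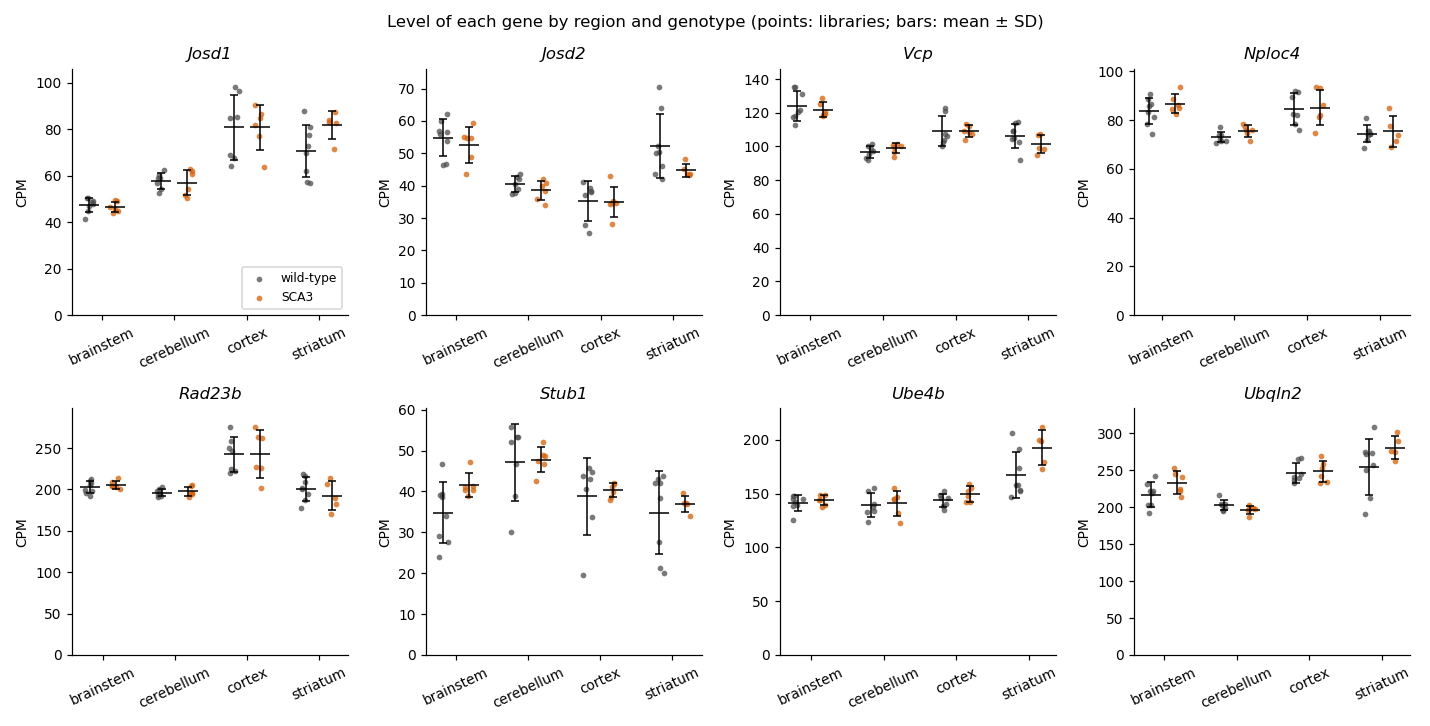
Level of each of the 8 genes in CPM (vertical axes, from 0) by brain region, with 1 point per library for wild-type and SCA3 mice and bars for mean ± SD. The genotypes overlap in every panel and region. Josd1 is highest in cortex and striatum, and wild-type Stub1 points spread down to 19.6 CPM.

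Neighbours in these orders did not always differ. Josd1 in cortex and striatum missed the FDR threshold (difference 0.20, SE 0.086, FDR = 0.063), while the other 5 pairs of regions passed it. This pair passed without wild-type mouse 7267055 (0.25, FDR = 0.025) or 9083371 (0.26, FDR = 0.017). For Josd2, brainstem and striatum (0.07, SE 0.092, FDR = 0.52) and cerebellum and cortex (0.19, SE 0.099, FDR = 0.073) were not separated, and the remaining 4 pairs were. The spread of Josd1 was widest in cortex. There, its lowest value over both genotypes, 63.6 CPM in SCA3 mouse 7267056, came from a library with a summed cortical glutamatergic marker level of 438 CPM, and its highest, 98.2 CPM in wild-type mouse 9083373, from one with 1531 CPM. The part of tissue makeup in this spread was not tested.

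Because Josd1 and Josd2 differed most from each other by region, the sequence before their start sites is shown, from the RefSeq promoter table on GRCm38, limited to bases outside any annotated exon (7 of the 8 genes had an entry). Capitals mark TGACG, the core of a cAMP response element, read on either strand (CGTCA on the other strand), letters that were searched after the sequences had been seen. The stretches are chr15:79687920-79688122 (minus strand, 203 bases, ending 47 bases before the RefSeq start) and chr7:44467759-44467979 (plus strand, 221 bases, ending at the start).
Josd1: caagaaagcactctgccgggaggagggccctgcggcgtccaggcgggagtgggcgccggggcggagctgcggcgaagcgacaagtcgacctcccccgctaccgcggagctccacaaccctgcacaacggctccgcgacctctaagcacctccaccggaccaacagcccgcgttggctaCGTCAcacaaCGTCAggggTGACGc
Josd2: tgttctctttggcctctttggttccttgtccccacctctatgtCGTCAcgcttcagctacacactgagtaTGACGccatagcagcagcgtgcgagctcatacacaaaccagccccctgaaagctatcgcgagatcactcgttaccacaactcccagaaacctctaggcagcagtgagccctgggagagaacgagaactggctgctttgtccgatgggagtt

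The Josd1 stretch held 3 matches within its last bases and the Josd2 stretch 2 matches near its distal end, none of them overlapping. In windows of the same length and position, 0.307% of all 32851 promoters held at least 3 matches and 3.6% held at least 2, and among the 9474 promoters of genes in the count table the shares were 0.612% and 6.81%. Motif and cut-offs were taken from the shown sequences, so these shares cannot show that the matches are rare. The windows of the other promoters were not limited to bases outside exons. In their own stretches Vcp held 1 match and Nploc4, Rad23b and Ube4b 0. The letters CACGTG, also searched, were in none of the stretches. The stretches differed in GC content, 69.5% for Josd1 and 53.8% for Josd2. These matches are letters in a sequence and were not measured as binding sites.

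Vcp, also called p97, and Nploc4, the adaptor through which it engages ubiquitin chains, varied less between regions. Vcp (chromosome 4, 42979963 to 43000507, minus strand, 17 exon blocks) was highest in wild-type brainstem at 124 ± 8.62 CPM (n = 8) and lowest in cerebellum at 96.9 ± 3.64 (n = 7), a 1.28-fold range, with cortex at 109 ± 8.98 and striatum at 106 ± 7.23. Brainstem exceeded cerebellum by 0.36 (log2, SE 0.048, FDR = 8.4e-13) with no overlap between libraries, which lay at 112.8 to 135 CPM and 91.7 to 102 CPM. Only cortex and striatum were not separated for Vcp (0.04, SE 0.048, FDR = 0.59). Exons of Vcp share 352 bases, 10.6% of its exon length, with 1700022I11Rik on the opposite strand, and the counting did not use strand.

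Nploc4 (chromosome 11, 120380370 to 120437708, minus strand, 17 exon blocks) fell into a high and a low pair of regions. Wild-type cortex at 84.6 ± 6.57 CPM and brainstem at 83.7 ± 5.43 did not differ by the test (0.02 higher in cortex, SE 0.051, FDR = 0.80), and neither did striatum at 74.4 ± 3.52 and cerebellum at 73.0 ± 2.15 (0.03 higher in striatum, SE 0.051, FDR = 0.64). All 4 differences across the pairs passed, from 0.17 between brainstem and striatum (SE 0.049, FDR = 0.0012) to 0.21 between cortex and cerebellum (SE 0.053, FDR = 1e-04). Vcp and Nploc4 were thus both low in cerebellum. In contrast to Nploc4, Vcp was 0.18 higher in brainstem than in cortex (SE 0.048, FDR = 0.00032).

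**Figure D2:**
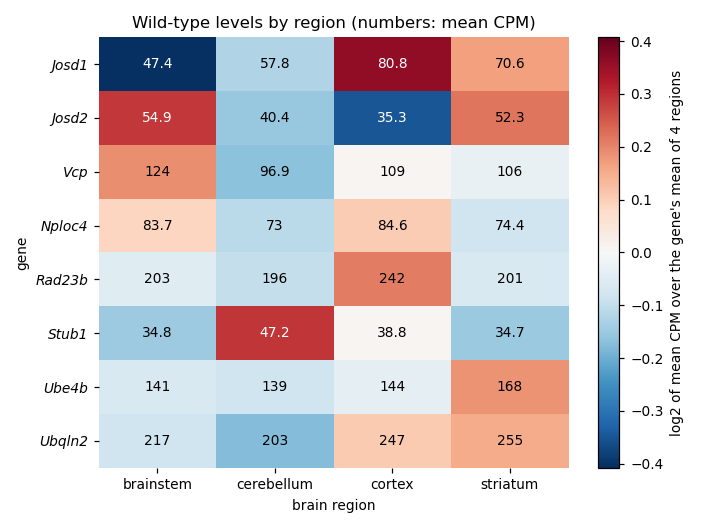
Mean wild-type level of the 8 genes (rows) in 4 brain regions (columns), with the mean CPM printed and colour for its log2 distance from the gene's own mean over the regions, red above and blue below. Josd1 at 47.4 in brainstem and 80.8 CPM in cortex and Josd2 at 54.9 and 35.3 CPM show opposite colours, and Stub1 is reddest in cerebellum at 47.2 CPM.

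The shuttle proteins bind the proteasome with a ubiquitin-like domain and ubiquitin chains with ubiquitin-associated domains. Rad23b (chromosome 4, 55350043 to 55392237, plus strand, 10 exon blocks), which also partners the repair factor Xpc, was highest in cortex: 242 ± 21.1 CPM in wild-type cortex (n = 7) against 203 ± 7.56 in brainstem, 200.7 ± 14.1 in striatum and 196 ± 4.38 in cerebellum. Cortex exceeded each of the others by 0.26 to 0.31 (log2, SE 0.056 to 0.058, largest FDR = 1.7e-05), with no overlap of libraries in any of the 3 comparisons. The other 3 regions were not separated from each other, with differences of at most 0.05 and a smallest FDR of 0.45.

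Ubqln2, encoded by a single exon on chromosome X (153498227 to 153501570, plus strand) and mutated in an inherited form of amyotrophic lateral sclerosis, was high in both forebrain regions. Wild-type striatum had 255 ± 37.7 CPM (n = 8), cortex 247 ± 13.6 (n = 7), brainstem 217 ± 16.6 (n = 8) and cerebellum 203 ± 6.996 (n = 7). Striatum and cortex did not differ by the test (0.05, SE 0.064, FDR = 0.61), and brainstem and cerebellum missed the threshold (0.10, SE 0.064, FDR = 0.16). The latter pair was called, with brainstem higher, with RIN, the RNA integrity number, as a covariate (0.15, FDR = 0.028) and in the 9083 series alone (0.16, FDR = 0.046), and striatum and cortex were called without the thalamus-rich striatal pair (FDR = 0.026). The 4 differences between forebrain and hindbrain regions ranged from 0.19 (brainstem below cortex, SE 0.064, FDR = 0.0069) to 0.33 (cerebellum below striatum, SE 0.064, FDR = 8.4e-07), and that between brainstem and cortex was lost in the 9083 series alone (-0.13, FDR = 0.13). The wild-type striatal libraries spanned 190.4 to 309 CPM, and the lowest was that of mouse 7267059, one of the pair with high thalamic markers.

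Of the ligases, Ube4b was highest in striatum. It lies on chromosome 4 (149328416 to 149426749, minus strand, 27 exon blocks) and lengthens ubiquitin chains started by other ligases. Wild-type striatum had 168 ± 21.3 CPM (n = 8), while cortex (144 ± 6.09), brainstem (141 ± 7.13) and cerebellum (139 ± 11.4) lay close together, with pairwise differences of at most 0.04 and a smallest FDR of 0.53. Striatum exceeded these by 0.22 (SE 0.061, FDR = 0.0018), 0.24 (SE 0.059, FDR = 8.2e-05) and 0.27 (SE 0.061, FDR = 2.8e-05). The ranges overlapped in all 3 cases, because the lowest striatal library held 147 CPM and the highest of the other regions 148 to 156 CPM. The antisense genes Ube4bos1 and Ube4bos3 share 452 and 72 exonic bases with Ube4b.

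Stub1, a co-chaperone and ligase that works with heat shock proteins and is mutated in other inherited ataxias, was highest in wild-type cerebellum at 47.2 ± 9.45 CPM (n = 7), with cortex at 38.8 ± 9.35, brainstem at 34.8 ± 7.55 and striatum at 34.7 ± 10.1. Cerebellum exceeded brainstem by 0.44 (log2, SE 0.15, FDR = 0.0054) and striatum by 0.44 (SE 0.15, FDR = 0.0052). Cerebellum against cortex missed the threshold without a replicate block (0.28, SE 0.15, FDR = 0.092) and passed it once the mouse was entered as a fixed replicate block in the paired fit (0.27, FDR = 0.0025). It also passed with a random block, with the number series entered in the fit (0.29, FDR = 0.025), with libraries of RIN of at least 7 (0.28, FDR = 0.048) and in the 9083 series alone (0.25, FDR = 0.0032). With RIN as a covariate, brainstem was 0.27 below cerebellum (FDR = 0.063), and with libraries of RIN of at least 7, cerebellum was 0.26 above striatum (FDR = 0.086).

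Over the 48 tests of wild-type region pairs, 30 were called at an FDR below 0.05, and 12 had libraries that did not overlap. Those 12 were 3 of 8 genes for brainstem against cerebellum (48.1% of all genes did not overlap there), 3 for brainstem against cortex (29.3%), 1 for brainstem against striatum (19.2%), 3 for cerebellum against cortex (41.9%), 0 for cerebellum against striatum (37%) and 2 for cortex against striatum (4.66%). The number of called genes of 8 was 5 for brainstem against cerebellum (72.6% of all genes were called there), 5 for brainstem against cortex (65.4%), 5 for brainstem against striatum (64.2%), 5 for cerebellum against cortex (69.7%), 6 for cerebellum against striatum (69.5%) and 4 for cortex against striatum (34.4%). These counts were not set apart from the shares of the table by any test. Among the 5 calls of cerebellum against cortex, the cerebellum was the lower region each time, while uncalled Josd2 and Stub1 were higher there (0.19 and 0.28). The share of all genes called lower in cerebellum was not counted, so this direction is not shown to be particular to these genes. In the 9083 series alone, calls were also lost for Rad23b (brainstem and striatum against cortex, FDR = 0.059 and 0.13), Vcp (cerebellum against cortex and striatum, FDR = 0.077 and 0.12) and Nploc4 (cortex against striatum, FDR = 0.098).

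Levels of different genes were compared only after division by exon length. In wild-type brainstem Ubqln2 had 64.9 CPM per kb of exon, Rad23b 53.2, Josd2 52.5, Vcp 37.4, Ube4b 25.1, Nploc4 20.3, Stub1 19.3 and Josd1 13.8, against 8.04 CPM per kb for Atxn3. The place of Stub1 is uncertain, since 45.3% of its exon length overlaps exons of a gene on the opposite strand (10.6% for Vcp). In cortex the same measure was 73.8 for Ubqln2, 63.6 for Rad23b, 33.8 for Josd2 and 23.5 for Josd1. Per length, Josd2 therefore stood 3.81-fold above Josd1 in brainstem and 1.44-fold above it in cortex.

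SCA3 was then compared with wild-type within each region, to see whether the partner genes differed where expanded ataxin-3 is present. Of 32 tests, 8 genes in 4 regions, 1 was called, Ube4b in striatum. In brainstem 0 of 8 genes were called (1.92% of all genes), in cerebellum 0 of 8 (0.0647%), in cortex 0 of 8 (0.154%) and in striatum 1 of 8 (7.54%). At an unadjusted p below 0.05 there were 0 of 8 genes in brainstem (13.3% of all genes), cerebellum (1.66%) and cortex (4.07%) and 4 of 8 in striatum (23.2%). DESeq2, edgeR's quasi-likelihood test and limma-voom likewise called 0 genes in those 3 regions and 1 in striatum. The SCA3 and wild-type ranges overlapped in all 32 cases, where 1.38%, 0.234%, 0.251% and 0.655% of all genes did not overlap in brainstem, cerebellum, cortex and striatum. Differences were small: 26 of 32 lay within 0.1 on the log2 scale, and the largest was 0.25.

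**Figure D3:**
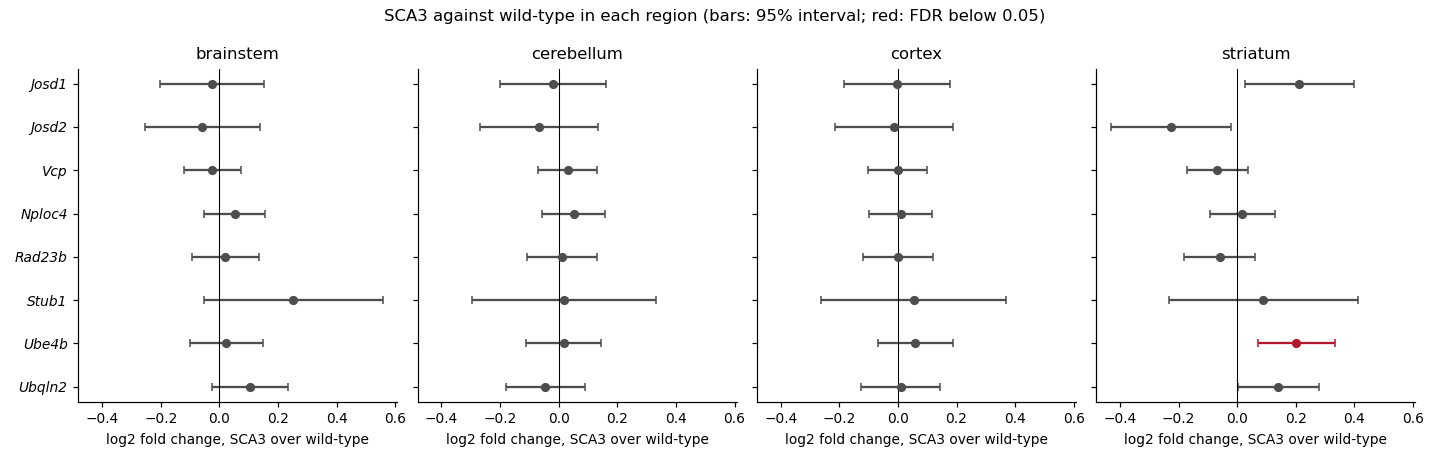
Log2 fold change of SCA3 over wild-type (horizontal axis) for the 8 genes in each region, with 95% intervals as bars and red for an FDR below 0.05. Only Ube4b in striatum, at 0.20, is red. Stub1 has the widest intervals, from -0.05 to 0.56 in brainstem.

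The median size of the change, without its sign, was 0.04 over the 8 genes in brainstem, 0.03 in cerebellum, 0.01 in cortex and 0.11 in striatum. Over all genes it was 0.08, 0.04, 0.06 and 0.11. In cortex the 95% interval of the log2 difference ran from -0.10 to 0.10 for Vcp and from -0.12 to 0.12 for Rad23b. Nploc4 showed 0.01 there (-0.10 to 0.12) and Ubqln2 0.01 (-0.13 to 0.14). In cerebellum Nploc4 showed 0.05 (-0.06 to 0.16), Rad23b 0.01 (-0.11 to 0.13) and Josd2 -0.07 (-0.27 to 0.14). A change of 1.2-fold, or 0.26 in log2, lay outside the intervals of Vcp, Nploc4, Rad23b and Ubqln2 in cerebellum and cortex.

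Ube4b was higher in SCA3 striatum. The 5 SCA3 libraries held 173, 179.8, 199.5, 199.8 and 212 CPM, and the 8 wild-type libraries ran from 147 CPM over a median of 158 to 207 CPM. Of the wild-type libraries 5 lay below all SCA3 libraries, but wild-type mice 9082857 (207 CPM), 9083371 (191 CPM) and 9083372 (174 CPM) reached into their range. The means were 193 ± 16.1 (n = 5) and 168 ± 21.3 (n = 8), a log2 difference of 0.20 (SE 0.067, 1.15-fold, FDR = 0.037). In the other regions Ube4b differed by 0.02 in brainstem (FDR = 0.92), 0.02 in cerebellum (FDR = 1) and 0.06 in cortex (FDR = 1). The test of whether the genotype effect depended on region called 0 of the 8 genes (0.218% of all genes were called), by edgeR, DESeq2 and limma-voom alike, and 0 had an unadjusted p below 0.05 (9.09% of all genes). Its FDR for Ube4b was 0.76, so the striatal value was not shown to differ from those of the other regions.

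The striatal Ube4b values are given here beside the marker sums of the dissected tissue. The libraries with the most projection neuron marker RNA, wild-type mice 9082857 (10809.5 CPM) and 9083371 (10492 CPM) and SCA3 mice 9083515 (9892 CPM), 7267054 (9609 CPM) and 7267056 (9319 CPM), held 191 to 212 CPM of Ube4b. The wild-type libraries with the least, mice 7267059 (2567 CPM), 9083373 (3630.2 CPM) and 7267058 (3869 CPM), held 153, 153 and 147 CPM. A marker score, the mean log2 CPM of a list's markers in a library, was entered as a covariate in fits of the striatal libraries alone. With the projection neuron score the difference was 0.06 (FDR = 1), and with the thalamic score it was 0.12 (FDR = 0.66). The same libraries with no score gave 0.20 (FDR = 0.35). Without the pair of libraries rich in thalamic markers the difference was 0.15 (FDR = 0.25). All 12 projection neuron markers were higher in SCA3 striatum (median 0.45), so tissue makeup and genotype cannot be told apart in these fits. The part of tissue makeup in the Ube4b difference was not tested.

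**Figure D4:**
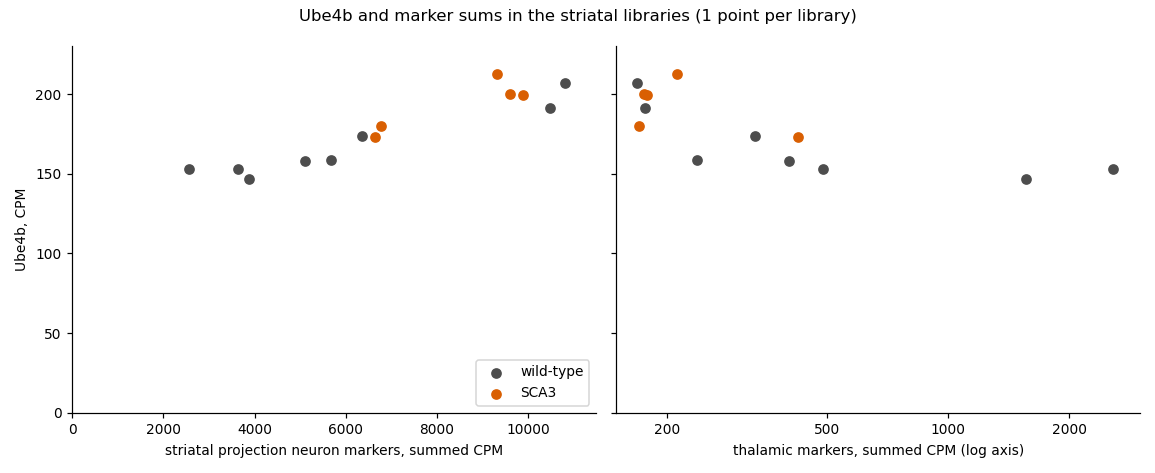
Ube4b in CPM (vertical axis, from 0) against the summed CPM of striatal projection neuron markers (left) and of thalamic markers (right, log axis), with 1 point per striatal library for wild-type and SCA3 mice. The 5 libraries furthest to the right on the left panel hold 191 to 212 CPM of Ube4b, and both genotypes are among them.

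The call for Ube4b lay close to the threshold. It was lost with libraries of RIN of at least 7 (0.15, FDR = 0.33) and in the fit of striatal libraries alone. Leaving out 1 mouse at a time, it was kept in 5 of 14 fits, 1 of which omitted a mouse with no striatal library (9083513), and lost in 9, with a difference between 0.17 and 0.25. The losses followed omission of SCA3 mice 7267054 (FDR = 0.11), 7267056 (FDR = 0.21) and 9083515 (FDR = 0.14) and of wild-type mice 7267055 (FDR = 0.062), 7267058 (FDR = 0.11), 7267059 (FDR = 0.10), 9083372 (FDR = 0.053), 9083373 (FDR = 0.099) and 9083375 (FDR = 0.061). Mouse numbers fell into 3 series by their leading digits. Within 7267 the SCA3 mean log2 level minus the wild-type mean was 0.43 (2 SCA3 and 3 wild-type mice), within 9083 it was 0.17 (2 and 4), and the 1 SCA3 mouse of series 9082 was 0.26 below the 1 wild-type mouse.

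Josd1, Josd2 and Ubqln2 had an unadjusted p below 0.05 in striatum and missed the FDR threshold. Josd1 was at 81.8 ± 6.14 CPM in SCA3 (n = 5) and 70.6 ± 11.4 in wild-type (n = 8), a difference of 0.21 (log2, SE 0.095, FDR = 0.15). Its SCA3 values of 71.3, 82.8, 83.2, 84.0 and 87.6 CPM lay within the wild-type range of 56.7 to 87.7. Josd2 went the other way, with 44.7 ± 2.05 CPM against 52.3 ± 9.99 (-0.23, SE 0.11, FDR = 0.17). Its SCA3 values of 43.2, 43.6, 43.7, 45.03 and 48.2 CPM lay inside the wild-type range of 42.1 to 70.6, whose top value belonged to wild-type mouse 7267059 with the highest thalamic (2574 CPM) and oligodendrocyte (20142 CPM) marker sums. Ubqln2 was at 281 ± 15.1 against 255 ± 37.7 CPM (0.14, SE 0.071, FDR = 0.21). Astrocyte markers summed to 4631 to 5173 CPM in SCA3 and 4489 to 6450.0 CPM in wild-type striatum, and the part of glial RNA in these differences was not tested.

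The size of these 3 differences depended on the libraries and covariates in the fit. Josd1 in striatum was called in 1 of 28 alternatives, without wild-type mouse 9082857 (0.26, FDR = 0.036). It was 0.12 (FDR = 0.58) without the pair of libraries rich in thalamic markers, and in striatal libraries alone 0.08 with the thalamic score (FDR = 0.74) and 0.04 with the projection neuron score (FDR = 1). Ubqln2 in the same 3 fits was at 0.04 (FDR = 0.80), 0.04 (FDR = 0.92) and 0.00852 (FDR = 1). Within series 7267 the SCA3 mean log2 level of Ubqln2 was 0.41 above the wild-type mean, against 0.0016 within 9082 and -0.0070 within 9083, and the fit of the 9083 series alone gave -0.0086 (FDR = 0.99). For Josd1 the differences within the series were 0.42, -0.30 and 0.25. Josd2 stayed negative in each series (-0.24, -0.20 and -0.18) and was -0.14 (FDR = 0.58) without the thalamus-rich pair.

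Stub1 showed the largest difference of the 32 in brainstem, 0.25 (SE 0.16, FDR = 0.49), and the widest errors throughout. That difference was 0.11 (FDR = 0.88) with RIN as a covariate and 0.07 (FDR = 0.87) in mice of the 9083 series alone. Beside it, oligodendrocyte markers summed to 9788 to 16462.5 CPM in SCA3 and 10786 to 22362 CPM in wild-type brainstem, and astrocyte markers to 3880 to 5792 and 4336 to 9291 CPM; their part was not tested. SCA3 brainstem had 39.0 to 47.3 CPM (mean 41.5 ± 2.93, n = 6), and wild-type brainstem 23.9 to 46.6 CPM (mean 34.8 ± 7.55, n = 8). The spread came from wild-type animals: the 10 libraries of wild-type mice 7267055, 7267058 and 7267059 held 19.6 to 38.9 CPM, and the other 43 libraries 34.01 to 55.8 CPM. The low values recurred across regions of the same mouse, at 19.6 to 30.0 CPM in 4 regions of 7267055, 20.0 to 33.7 in 3 regions of 7267058 and 27.5 to 38.9 in 3 regions of 7267059. SCA3 mice 7267054 and 7267056, with numbers of the same series, held 37.2 to 48.7 CPM.

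**Figure D5:**
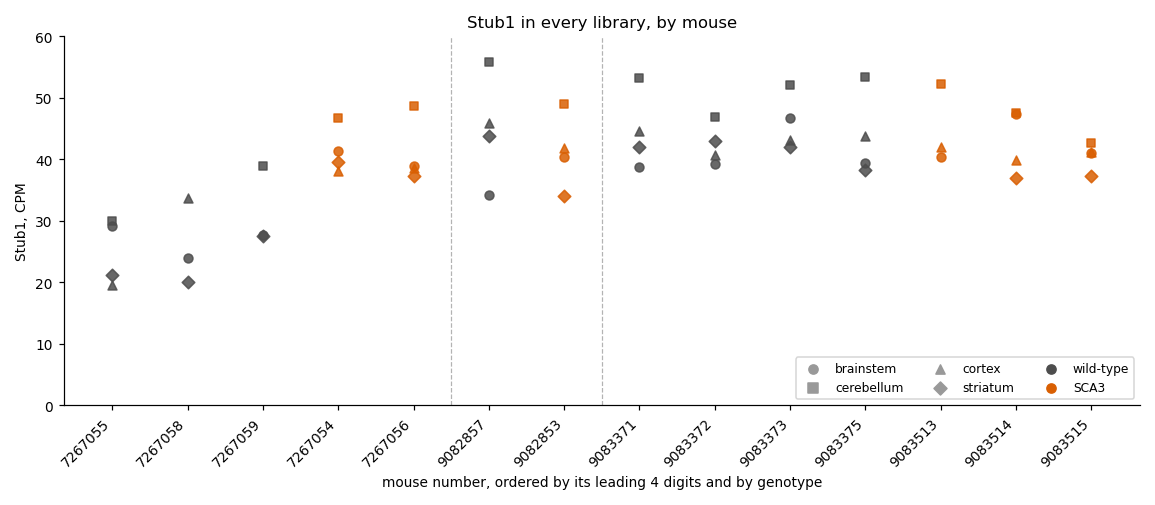
Stub1 in CPM (vertical axis, from 0) in every library, by mouse (horizontal axis, ordered by the leading 4 digits of the mouse number, with dashed lines between series, then by genotype). Marker shape gives the region and colour the genotype. The 3 wild-type mice on the left lie at 19.6 to 38.9 CPM, and the other 11 mice at 34.01 to 55.8 CPM.

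Within series 7267, Stub1 was higher in SCA3 than in wild-type mice by 0.58 in brainstem, 0.48 in cerebellum, 0.57 in cortex and 0.76 in striatum (differences of mean log2 CPM). Within series 9083 the differences were 0.07, -0.12, -0.07 and -0.16. The 3 wild-type mice with low Stub1 had library totals of 31.7 to 39.9 M counts, other than 42.8 M in brainstem and 67.8 M in striatum of mouse 7267058, against 44.7 to 71.3 M in the SCA3 mice of the series. Their RIN values were 6.0 to 7.7, against 5.7 to 8.2 in those SCA3 mice. The part of depth or origin of the mice was not tested. Stub1 lies on chromosome 17 (25830505 to 25833404, minus strand, 7 exon blocks), and 816 bases, 45.3% of its exon length, overlap exons of Jmjd8 on the opposite strand, so its unstranded counts are uncertain. Jmjd8 itself held 12.0 to 18.6 CPM in those 10 libraries and 11.4 to 23.1 CPM in the other 43.

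Vcp, Nploc4 and Rad23b had no unadjusted p below 0.05 in any region. Vcp was at 122 ± 4.32 CPM in SCA3 brainstem against 124 ± 8.62 in wild-type, and at 102 ± 5.47 against 106 ± 7.23 in striatum (-0.07, SE 0.053, FDR = 0.45). Nploc4 differed by 0.01 to 0.05 across the 4 regions, with a smallest FDR of 0.73. Rad23b differed by -0.06 to 0.02, with a smallest FDR of 0.59. The joint test of a genotype effect in any region called none of the 8 genes (4.73% of all genes were called), and the smallest FDR was 0.25, for Ube4b, the 1 gene with an unadjusted p below 0.05 (16.6% of all genes). DESeq2, the quasi-likelihood test and limma-voom also called 0 in the joint test. Without wild-type mouse 9082857 the joint test called Ube4b (FDR = 0.017).

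Atxn3 was counted on the mouse genome, and reads of the human transgene were not separated here. It was at 58.0 ± 4.04 CPM in SCA3 striatum (n = 5) against 46.2 ± 4.24 in wild-type (n = 8), 0.33 higher (SE 0.064, FDR = 0.00012), with SCA3 libraries at 54.3 to 64.8 CPM above the wild-type range of 40.1 to 53.7. The call was kept in 26 of 28 alternatives and lost in striatal libraries alone with the projection neuron score (0.26, FDR = 0.27) and with the 9083 series alone (0.31, FDR = 0.25). The FDR for a dependence of the Atxn3 effect on region was 0.21. It was not called in brainstem (0.01, FDR = 0.98), cerebellum (0.11, FDR = 1) or cortex (0.14, FDR = 0.98). In wild-type mice Atxn3 was lowest in cerebellum at 34.4 ± 2.77 CPM (n = 7), where Vcp, Nploc4, Rad23b, Ube4b and Ubqln2 also had their lowest mean.

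The wider pathway was covered by 3 lists with 48 measured genes: 22 Vcp cofactors and genes of endoplasmic reticulum-associated degradation, 11 shuttle and receptor proteins, and 15 further partners, co-chaperones and ubiquitin enzymes, Atxn3 among them. In brainstem, cerebellum and cortex 0 of 48 were called by edgeR, DESeq2 or limma-voom, beside the shares of all genes already given, and 6, 0 and 3 had an unadjusted p below 0.05 (13.3%, 1.66% and 4.07% of all genes). In striatum 3 of 48 were called, Atxn3 and Ubxn2b higher and Aspscr1 lower, and 10 had an unadjusted p below 0.05 (23.2% of all genes). With 7.54% of all genes called in striatum, 3 of 48 was near the background. Ubxn2b, a UBX-domain adaptor of Vcp, was at 72.5 CPM in SCA3 and 58.2 CPM in wild-type striatum (0.32, SE 0.090, FDR = 0.012). Aspscr1, another UBX-domain protein, known for tethering glucose transporter vesicles, was at 29.7 and 34.8 CPM (-0.23, SE 0.065, FDR = 0.014). Both calls were lost with striatal libraries alone, where the differences kept their size (0.32, FDR = 0.27 for Ubxn2b and -0.23, FDR = 0.29 for Aspscr1). They were also lost without the libraries rich in thalamic markers (0.23, FDR = 0.14, and -0.17, FDR = 0.16) and with the projection neuron score (0.12 and -0.10, FDR = 1 for each). Of 28 alternatives, 20 kept the call of Ubxn2b and 19 that of Aspscr1. Among the 14 omissions of a single mouse, 12 kept the call of Ubxn2b and 10 that of Aspscr1. The striatal median of the list was -0.03 for the Vcp cofactors, 0.06 for the shuttle and receptor proteins and -0.03 for the further partners, beside 0.00 over all genes, and 0 of 11 shuttle and receptor genes were called.

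The genes whose log2 level followed each member most closely over the 53 libraries are given as a description, since the libraries share regions and mice. Josd1 went with Adgrl1 (Pearson r = 0.96), a latrophilin receptor, and Mmp17 (0.96), and Josd2 with Micall1 (0.92) and Tmem63a (0.91). The closest to Vcp were Dctn4 (0.94), a dynactin subunit, and Psmd1 (0.93), a subunit of the proteasome's regulatory particle. Nploc4 went with Pgs1 (0.87) and Rab3a (0.86), Rad23b with Ssx2ip (0.93) and Pgam5 (0.91), Ube4b with Strn (0.87) and Osbp (0.86), and Ubqln2 with Foxo6 (0.89) and Adcy3 (0.89). Stub1 went with 2310036O22Rik (0.95) and 4930413G21Rik (0.93). The first of these also reached its lowest values in the 10 libraries with low Stub1, at 20.4 to 40.8 CPM against 31.0 to 53.5 CPM in the other 43.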

How the data were processed

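Brainstem, cerebellum, cortex and striatum RNA of 14 mice was sequenced. The authors deposited unnormalised counts, whole numbers for every gene and library. By their methods and processing notes, poly-A libraries without strand information were trimmed (cutadapt 1.10), aligned to GRCm38 (mm10) with STAR 2.3.0e keeping uniquely aligned reads, and counted per RefSeq gene with HTSeq 0.6.1 without strand, and genes averaging above 4 CPM were kept. Reads shared by overlapping genes or near-identical copies were thus not resolved, and genes below that level were not analysed here.

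Groups were taken from the labels for genotype and tissue. Following the study's design, edgeR 4.0.16 (R 4.3.3) was run on TMM-scaled counts with all 53 libraries, 8 groups of region and genotype, a likelihood ratio test per contrast, and FDR (Benjamini-Hochberg) over 12372 genes, called below 0.05. Libraries held 31.7 to 76.7 M counts, and no pair agreed closely enough to be 1 library (highest r = 0.995). Log2 CPM used a prior count of 2, and 95% intervals are the estimate with its normal error. Alternatives were edgeR's quasi-likelihood test, DESeq2 1.42.0, limma-voom (limma 3.58.1), other scalings and filters, covariates, subsets of libraries and omission of each mouse. After seeing the data, fits with marker scores, without thalamus-rich libraries or with a single mouse series were added. The fits were tested on simulated counts drawn independently for each library, which leaves out the correlation between regions of a mouse.

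The same mouse gave several regions, so mice pair libraries across regions but not genotypes. Between regions of a mouse, deviations from the group means had a mean r of 0.0904 to 0.186 (6 region pairs). Positions and exon lengths are from GENCODE vM21, promoters from RefSeq (GRCm38.p6). The 8 genes, the related lists and the marker lists were chosen with earlier results of these data known. Genes named with values were all 8 members, Atxn3, up to 4 called genes with the smallest FDR per related list and region, and the 2 genes with the highest correlation to each member.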

Additional observations from a re-analysis of the deposited data

Results flagged for a closer look

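Each of the 8 genes was examined for a library far from the rest of its group, in all 64 combinations of gene, region and genotype, and 2 libraries stood out by Dixon's ratio, where chance would give about 1 in 20 groups. In SCA3 brainstem, Stub1 was highest in mouse 9083514 at 47.3 CPM, the next library being at 41.3 CPM. In wild-type brainstem, Ube4b was lowest in mouse 7267055 at 126 CPM, the next being at 139 CPM.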

How the results depend on the processing

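Of the calls between SCA3 and wild-type, that of Ube4b in striatum (1 gene called) fell to 0 with libraries of RIN of at least 7, with striatal libraries alone, without the libraries rich in thalamic markers, with either marker score as a covariate and with mice of the 9083 series alone; its difference stayed positive in all 28 alternatives, 13 of which kept the call. Omitting 1 mouse at a time gave 0 to 2 called genes in striatum, 0 to 1 in the joint test of any region (1, Ube4b, without wild-type mouse 9082857) and 1 to 7 related genes. The 3 related genes of striatum became 1 with striatal libraries alone, 1 with the thalamic score, 0 with the projection neuron score and 0 with the 9083 series alone. In wild-type mice of the 9083 series alone, 3 genes were called for brainstem against cortex (5 in all libraries) and 2 for cortex against striatum (4). Without the thalamus-rich libraries, cerebellum against striatum was no longer called for Vcp (-0.10, FDR = 0.067) or Stub1 (0.30, FDR = 0.062), and cortex against striatum was called for Ubqln2 (-0.14, FDR = 0.026). In the paired fits, the mouse as a replicate block called Stub1 between cerebellum and cortex (0.29, FDR = 0.049, with a random block; 0.27, FDR = 0.0025, with a fixed block) and changed no other call of the 8 genes. No called value changed sign under these alternatives, while 84 uncalled values did, the largest being 0.16. Causes were not tested, other than that fits on subsets hold fewer samples. The RIN covariate, quasi-likelihood, DESeq2, RLE and 10-count fits kept the Ube4b call. Each gene had at least 709 counts per library, and the part of library depth in Stub1 was not tested.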
